A study of Mus musculus with 7 samples.

Results

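Cells selected by a rule for stratified epithelium, the layered sheet that lines the outer surface, the nostril and the mouth, were followed in the mouse nose at embryonic day 14.5. They were chosen by the UMIs of 7 genes, among cells that passed a filter (500 detected genes or more, mitochondrial UMIs no higher than 10%). A cell counted as stratified when it held at least 1 UMI of Epcam, at least 2 UMIs over Krt5, Krt14, Krt15 and Trp63 together, and none of Cyp2g1 or Stmn3. The 4 summed genes encode keratin filaments of basal cells and the transcription factor p63. Epcam encodes an adhesion protein of epithelial cells, Cyp2g1 marks sustentacular cells and Stmn3 marks neurons. The rule took 1315 of 31465 kept cells over 6 libraries. Stratified is a working name for them. Of these cells, 111 lay in sub-clusters led by mesenchymal genes and 87 in sub-clusters led by secretory or ciliated genes. Others raised many genes of a nasal and olfactory list. Another 2241 cells with Epcam, a keratin and p63 sum of at most 1 and neither of the excluding genes formed the simple epithelium, against which the stratified cells were compared. A UMI, or unique molecular identifier, stands for a single captured transcript, and CPM (a scaling of counts to library size) divides a gene's UMIs by the total of the summed cells.

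The series measured single-cell expression in dissociated whole noses. Of the 5 wild-type (WT) libraries, all from CD1 IGS mice, replicates 1, 2, 4 and 5 are used. Replicate 3 shared 7386 of its 7396 barcodes with replicate 4 and was left out, while all other pairs had 34 shared barcodes or fewer. The other two libraries came from 1 ProKR2iCre/R26tdTomato nose. Its strain label joins the allele Prokr2em1(cre)Cfe on a B6;SJL background, which makes Cre from the Prokr2 locus, with Gt(ROSA)26Sortm14(CAG-tdTomato)Hze, a red tdTomato reporter that Cre switches on. They are called Prokr2Cre library 1 and library 2. One of them was sorted by fluorescence; the labels do not say which, although the deposited files name library 2 as the sorted library, a name that assigned no group here. Since they stem from 1 animal they were neither averaged nor tested. All noses had the same age and tissue label. The protocol names 5 CD1 IGS noses, but no label ties a library to 1 animal, so p-values measure the spread between these captures. Total counts ran from 16773781 to 89800259 UMIs per library.

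In a stratified epithelium, basal cells sit on the basement membrane through hemidesmosomes, divide under the control of p63, and give rise to suprabasal cells that change their keratins and build the barrier. At mid-gestation a flat outer layer, the periderm, still covers the embryo. Whisker placodes are local thickenings of the snout epithelium that signal with WNT, EDA and SHH proteins to the dermis below. The lining of the mouth and the tooth-forming epithelium use other regulators, such as Foxe1 and Tbx1, and the nasal cavity carries an olfactory and a respiratory epithelium that descend from the olfactory placode.

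The 4 keratin and p63 genes that chose the cells lie on 3 chromosomes of the mm10 (GRCm38) build: Krt5 on chromosome 15 (101707070 to 101712898), Krt14 and Krt15 close together on chromosome 11 (100203162 to 100207548 and 100131758 to 100135928) and Trp63 on chromosome 16 (25683763 to 25892102). Promoter sequences from RefSeq (GRCm38.p6) were found for 2 of these 4 genes and for 6 of the 12 genes with the largest positive differences below. The 250 bases before the RefSeq start are shown for Krt5, which helped define the cells, for Krtdap, which marks the upper layers, and for Wnt6, the WNT ligand among those 12 genes. The Krt14 window (100206031 to 100206280) lies wholly inside the GENCODE gene given above and is not shown, and the Krtdap window runs a few bases into the GENCODE gene, which starts at 30787896. The sequences are given 5′ to 3′ on the gene's strand, with capitals marking a match to the AP-2 motif.
Krt5 (chr15:101712906-101713155, minus strand): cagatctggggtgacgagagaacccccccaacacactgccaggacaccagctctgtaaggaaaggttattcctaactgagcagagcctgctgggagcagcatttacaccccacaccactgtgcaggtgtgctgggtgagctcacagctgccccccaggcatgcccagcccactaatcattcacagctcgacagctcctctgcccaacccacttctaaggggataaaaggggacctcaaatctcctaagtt
Krtdap (chr7:30787655-30787904, plus strand): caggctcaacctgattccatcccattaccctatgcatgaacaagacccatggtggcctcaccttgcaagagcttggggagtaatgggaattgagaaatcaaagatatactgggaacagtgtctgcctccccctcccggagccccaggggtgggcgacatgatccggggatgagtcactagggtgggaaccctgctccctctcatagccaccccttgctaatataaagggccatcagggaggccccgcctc
Wnt6 (chr1:74771642-74771891, plus strand): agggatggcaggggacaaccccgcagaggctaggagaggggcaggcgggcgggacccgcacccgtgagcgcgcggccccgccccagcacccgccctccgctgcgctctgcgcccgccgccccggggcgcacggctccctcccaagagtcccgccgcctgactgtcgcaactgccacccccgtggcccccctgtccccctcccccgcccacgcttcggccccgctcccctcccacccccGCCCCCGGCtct
The AP-2 motif searched was GCCNNNGGC, which reads the same on both strands, and it was found at base -12 of Wnt6 and not in the windows of Krt5 and Krtdap. Cstdc5 held it at base -86. Thus 2 of the 6 promoters of those 12 genes held the motif, against 20.7% of 9805 promoters of tested genes and 13.6% of all 27025 promoters. The Grainyhead-like motif AACCGGTT was in none of the 8 windows and in 0.122% of all promoters. A match of letters describes the window only.

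Stratified cells made up a few percent of the kept cells of each WT library. They numbered 354 of 7790 kept cells in WT replicate 1 (4.54%, 95% Wilson interval 4.10% to 5.03%), 505 of 10496 in replicate 2 (4.81%), 118 of 7029 in replicate 4 (1.68%) and 138 of 3250 in replicate 5 (4.25%), a mean of 3.82% ± 1.45 (SD, n = 4). Replicate 4 was lower than the other 3. Among epithelial cells, defined as stratified plus simple, the share was 33.1%, 37.5%, 28.1% and 40.1% in the same order (34.7% ± 5.28, SD, n = 4). Prokr2Cre library 1 held 188 stratified cells, 10.5% of its kept cells (9.17% to 12%) and 62.5% of its epithelial cells. Library 2 held 12, or 1.08% (0.619% to 1.88%) and 16.0%. Shares of kept cells moved with the cell settings. Under a stricter cell filter, with 1000 genes required and mitochondrial UMIs limited to 5%, the share was 5.65% in library 1 and 2.43% in WT replicate 5. With cells thinned to 3000 UMIs it was 6.64% in library 1 and 3.06%, 3.72%, 1.05% and 2.86% in the WT captures. Intervals cover counting error only, and because frozen, dissociated noses were loaded, cell loss and true abundance cannot be told apart.

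**Figure D1:**
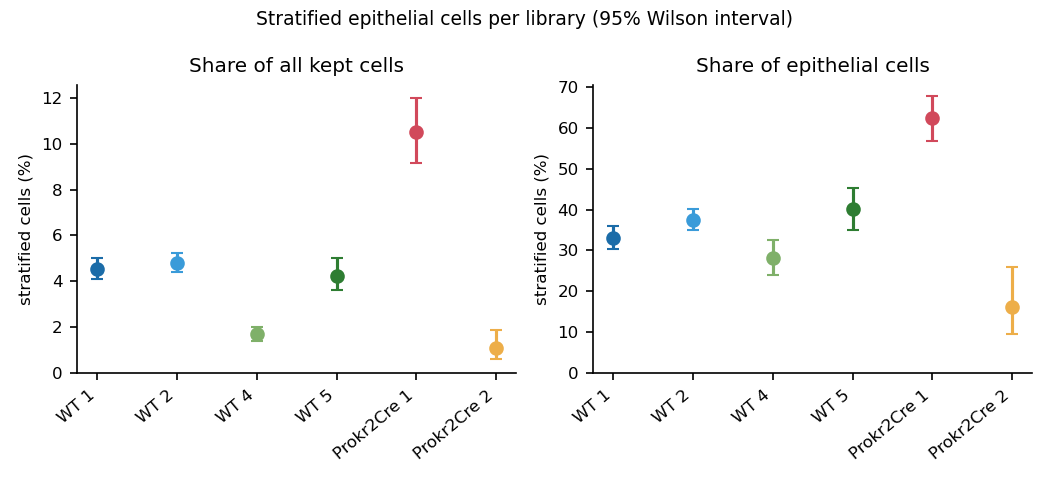
Share of stratified cells among all kept cells (left) and among epithelial cells (right) in each library, in percent, with 95% Wilson intervals as bars. WT replicate 4 lies below the other WT captures at 1.68% of kept cells, and Prokr2Cre library 1 lies highest in both panels.

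Krt14 was the most often detected of the 4 genes in each WT capture. Trp63 was the least often detected in WT replicates 1, 2 and 5, and Krt15 in replicate 4. Krt14 stood at 957, 923, 541 and 1123 CPM in the stratified cells of WT replicates 1, 2, 4 and 5, and was detected in 78.0% to 87.5% of them. Krt5 stood at 468, 749, 496 and 736 CPM, and Krt15 at 604, 721, 380 and 837. Trp63 stood at 62.9, 180, 163 and 240 CPM, so that replicate 1 was the lowest for p63 although not for Krt14. All 4 genes were found together in 26.3%, 40.6%, 21.2% and 49.3% of the WT cells, in 52.7% of those of Prokr2Cre library 1 and in 83.3% of those of library 2. These values describe the rule and carry no test. Cells without an Epcam UMI held Krt14 in 0.282% to 5.09% over the 6 libraries, and 0.250% to 1.85% of them reached the sum of 2. Near the threshold lay few cells: 83 of the 1315 had a sum of exactly 2, 215 simple cells had exactly 1, and 944 stratified cells had 10 or more. A further 60 cells with Epcam and the required sum were set aside because they held Cyp2g1 or Stmn3.

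Both classes differed in depth and in their levels of Epcam and mesenchymal genes, which bears on each comparison below. Median UMIs per cell were 8330 to 14440.5 in stratified and 6587 to 10802 in simple cells of the WT captures, with stratified cells deeper in all 4. The median Epcam count was 6 to 8.5 UMIs in stratified and 1 to 4 in simple cells, and 36.6% to 53.9% of simple cells had exactly 1 Epcam UMI. The summed level of 9 mesenchymal genes, among them Col1a1, Twist1 and Pdgfra, was 223 to 735 CPM in stratified cells, 1353 to 3298 CPM in simple cells and 4417 to 5696 CPM in cells without Epcam. The comparison was therefore repeated with at least 3 Epcam UMIs required in both classes, which left 11989 genes to test. This was a setting chosen after these values had been seen. It is called the stricter Epcam setting below, and its part in any single result was not tested beyond the values given.

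Over the whole table, 12545 genes were tested between the summed stratified and simple cells of the 4 WT captures, with the capture as a block and without the 7 genes of the rule. At an adjusted p under 0.05, 25.9% of them were called, 12.4% (1561 genes) higher in stratified cells and 13.4% (1683 genes) lower. The CPM ranges of the 4 captures did not overlap for 11.2% of the genes. The median log2 difference over all genes was 0.01. So large a share of called genes is the background against which each group below should be read. Since cells were sorted into the classes by 4 genes, any gene that is made in the same cells will differ too, and the test says only that a difference recurred over captures. Under the stricter Epcam setting 2144 genes were called, and 197 of the 3244 genes called before had the opposite sign. Without WT replicate 2 the count was 2050, and without the capture as a block it was 691.

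**Figure D2:**
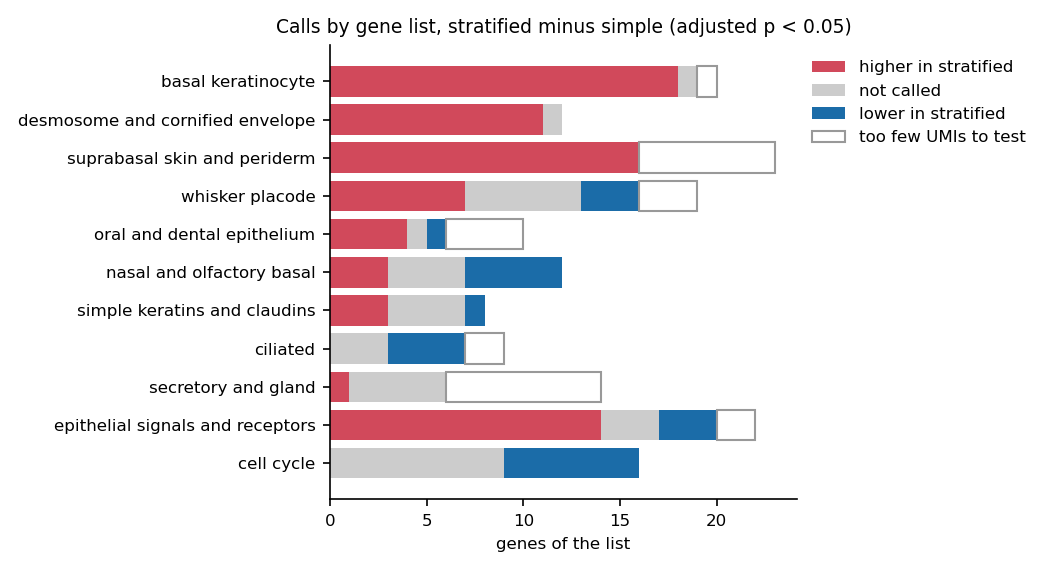
Number of genes in each gene list that were called higher, called lower, not called or not tested for low counts in stratified against simple cells of the 4 WT captures. Nearly all tested basal, desmosomal and suprabasal genes were higher, while the whisker, oral and nasal lists were mixed.

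Genes of the basal layer were higher almost throughout. Of 20 basal keratinocyte genes other than those of the rule, 19 could be tested and 18 were higher, with a median log2 difference of 2.40. Col17a1 encodes collagen XVII of the hemidesmosome and stood at 52.9, 96.1, 47.8 and 118 CPM in stratified cells of WT replicates 1, 2, 4 and 5, against 0.42, 0.957, 1.08 and 1.32 CPM in simple cells. The groups did not overlap, and the log2 difference was 6.56 (SE 0.19, adjusted p = 1.36e-06 by edgeR's quasi-likelihood test with Benjamini-Hochberg adjustment, as for all adjusted p here). Other anchoring genes shared the direction: Lama3, a laminin-332 chain, was higher by 5.01, Itgb4, the hemidesmosomal integrin, by 3.55, and Itga6, its partner, by 1.51. Krt17, a keratin of embryonic and appendage epithelium, stood at 1483, 679, 724 and 1578 CPM against 46.7 to 64.6 CPM. Its log2 difference was 4.28 (SE 0.27, adjusted p = 4.19e-05). Sfn, which encodes the 14-3-3 sigma protein of keratinocytes, stood at 1036, 717, 750 and 786 CPM against 101, 35.3, 19.4 and 18.1 CPM, a log2 difference of 4.48 (SE 0.32). Of the AP-2 factors, Tfap2a was higher by 2.57 and Tfap2b was the 1 tested gene of the list that missed the threshold, at 19.0, 148, 95.6 and 102 CPM against 38.2, 78.7, 103 and 158 CPM (log2 difference -0.09, adjusted p = 0.855). Its sign changed with the cell settings, and without cells holding a collagen UMI it was higher by 4.80 (adjusted p = 6.27e-06).

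Cell-cell junction genes showed the same direction. Of 12 genes of desmosomes and the cornified envelope, all tested, 11 were higher and the median log2 difference was 2.95. Dsc3, a desmosomal cadherin, stood at 56.8, 79.9, 103 and 99.9 CPM in stratified cells against 2.10, 6.97, 1.43 and 2.20 CPM in simple cells, with a log2 difference of 4.53 (SE 0.30, adjusted p = 5.01e-05). Dsg3, its basal partner cadherin, was higher by 6.19, on 4 UMIs in all WT simple cells. Pkp1, a plakophilin of layered epithelium, was higher by 4.76, Perp, a p63 target in desmosomes, by 4.47, Dsp, which links desmosomes to keratin, by 3.02, and Jup, plakoglobin, by 2.30. Pkp2, the plakophilin of simple epithelium and heart, was the exception at 6.68, 18.7, 32.05 and 16.4 CPM against 7.25, 36.2, 36.9 and 21.1 CPM (log2 difference -0.41, adjusted p = 0.128). It was lower in each of the 4 captures, and under the stricter Epcam setting the difference was -1.12 (adjusted p = 0.00144), and with cells thinned to 3000 UMIs Pkp2 was at -1.19 (adjusted p = 0.00568).

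Genes of the differentiating upper layers were present within the same selection. Of 23 suprabasal and periderm genes, 16 had enough UMIs to test and all 16 were higher, with a median log2 difference of 2.97. Those 16 passed a filter that favours genes high in either class, so the count is no measure of the full list. Krtdap, a secreted keratinocyte differentiation protein on chromosome 7 (30787896 to 30791097), stood at 508, 388, 383 and 343 CPM in stratified cells of WT replicates 1, 2, 4 and 5 and at 1.58, 5.19, 0 and 0.881 CPM in simple cells. The 4 stratified values lay close together, far above all simple ones, and the log2 difference was 7.52 (SE 0.38, adjusted p = 1.64e-05). Only some cells carried it: Krtdap was detected in 22.9%, 37.6%, 30.5% and 30.4% of the WT stratified cells, in 0% to 1.96% of simple cells and in 0.203% to 0.729% of cells without Epcam. Krt1, a keratin of the spinous layer, stood at 86.0, 71.3, 326 and 168 CPM against 7.15, 13.9, 1.43 and 5.73 CPM (log2 difference 3.97, SE 0.53), and its partner Krt10 was higher by 2.35. Dsg1a, a suprabasal cadherin, was higher by 5.86, and Grhl3, a factor of barrier formation, by 3.29. Klf4, a barrier regulator, was higher by 0.57, a call lost without WT replicate 2 (0.55, adjusted p = 0.0703), 4 (0.54, adjusted p = 0.0668) or 5 (0.42, adjusted p = 0.052). It was at 1.00 under the stricter Epcam setting (adjusted p = 0.00127) and at 1.05 in thinned cells (adjusted p = 0.000903). Klf5 was higher by 2.09 and Ovol1, which restrains basal fate, by 1.65. With cells thinned to 3000 UMIs, Ovol1 was at 0.61 and lost its call (adjusted p = 0.114). Grhl1 was higher by 1.17, yet by only 0.27 (adjusted p = 0.293) under the stricter Epcam setting. The same setting took the secreted protein gene Dmkn from 3.40 to 2.55 (adjusted p = 0.0565), and without replicate 1 Dmkn was at 6.41. Without replicate 2, Dsg1a was at 9.20. Lor and Ivl, markers of the finished cornified layer, stood at 2.33 to 8.85 and at 0 to 0.583 CPM in WT stratified cells.

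Among called genes with at least 50 CPM in stratified cells and higher in all 4 captures, the 12 with the largest positive differences were Cstdc5, Krtdap, Krt6a, Col17a1, Trim29, Lgals7, Pkp1, Wnt6, Dsc3, Sfn, Perp and Barx2. In each, the CPM ranges of the classes did not overlap, as in 11.2% of all genes tested. The list was chosen by size and direction, so this is no test. Cstdc5, a cystatin family gene, had 2278 UMIs in WT stratified and 2 in WT simple cells, a ratio of 1541 with a counting interval of 426 to 12729. Krt6a, a keratin of the periderm and of appendage sheaths, stood at 98.5, 68.99, 48.4 and 89.6 CPM, with 17 UMIs in all WT simple cells, and was higher by 6.71 (SE 0.48). Trim29, a keratinocyte protein of the TRIM family, was higher by 5.70 and Lgals7, galectin-7, by 5.22. Cstdc5 and Krt6a belong to families with closely similar genes, and how reads were assigned among family members was not examined.

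**Figure D3:**
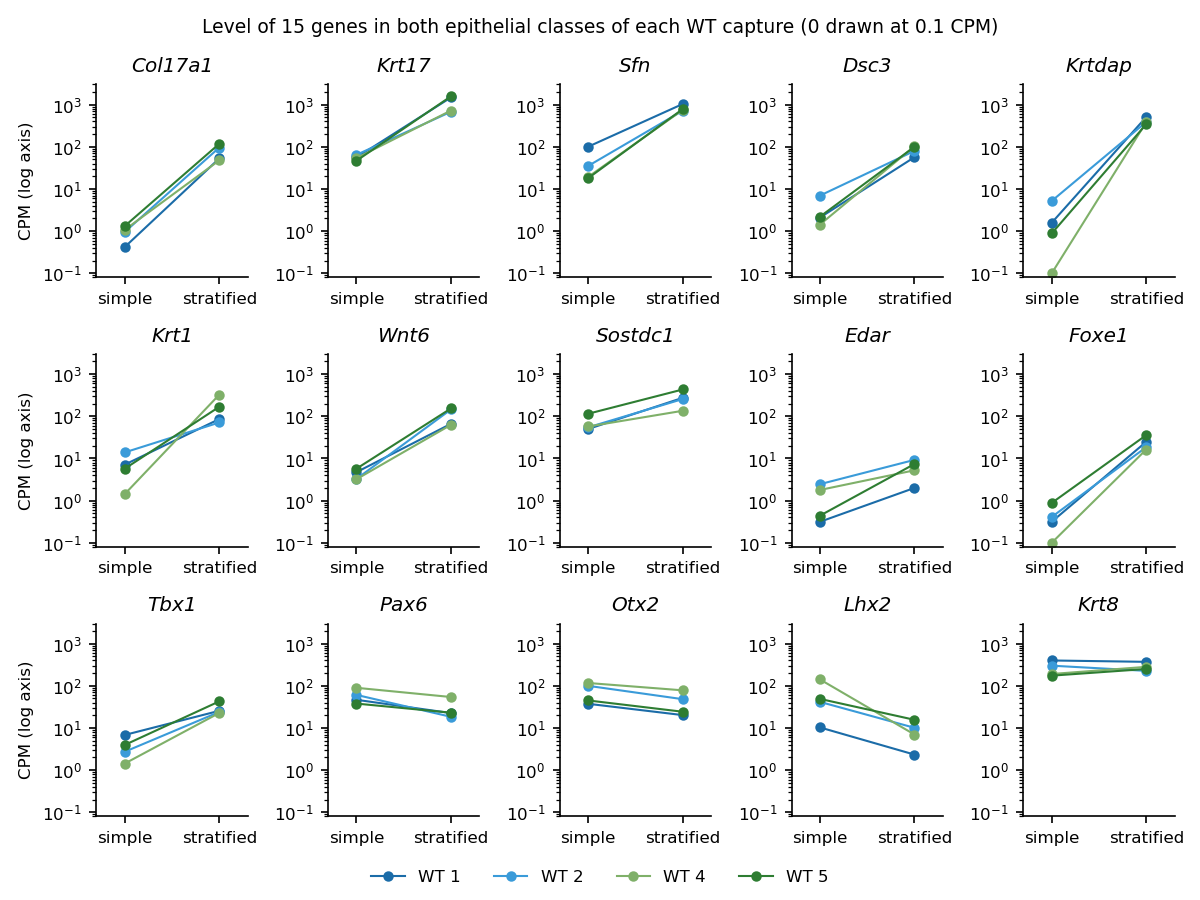
CPM on a log axis of 15 genes in the simple and stratified cells of each WT capture, with a line joining the 2 classes of a capture. Col17a1, Dsc3, Krtdap and Foxe1 are higher in the stratified cells of all 4 captures, Pax6, Otx2 and Lhx2 are lower in all 4, and Krt8 is higher in 2 and lower in 2.

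The whisker placode list did not move as a block. Of its 19 genes 16 were tested, 7 were higher, 3 were lower and 6 were not called, with a median log2 difference of 0.87. Under the stricter Epcam setting 14 were tested, 9 were higher and 3 lower, with Lef1 (1.29), Sox9 (0.82) and Trps1 (0.56) newly called higher, Sostdc1 at 3.69 and Msx2 at 3.13. Those higher include WNT and EDA pathway members. Sostdc1, an inhibitor of WNT and BMP signals, stood at 274, 257, 135 and 433 CPM in stratified and 50.04, 54.8, 57.4 and 115 CPM in simple cells, a log2 difference of 2.06 (SE 0.17, adjusted p = 0.00011). The ligand gene Wnt10b was higher by 4.88, on 5 UMIs in WT simple cells, and Wnt10a by 3.16. Edar, the receptor for ectodysplasin that starts placodes, stood at 2.00, 9.27, 5.24 and 7.40 CPM against 0.315, 2.46, 1.79 and 0.441 CPM, overlapping between the classes though higher in each capture (log2 difference 2.25, SE 0.37, adjusted p = 0.00277). Its adaptor Edaradd was higher by 2.37, the WNT receptor gene Fzd10 by 2.24, and Msx2, a BMP-responsive homeobox gene, by 1.72. The 3 lower genes were Lhx2, a homeobox gene shared by hair placodes and olfactory progenitors, at 2.34, 10.1, 6.99 and 15.6 CPM against 10.3, 41.5, 142 and 48.9 CPM (log2 difference -2.37, SE 0.34), Fgf20 (-1.90) and the WNT feedback inhibitor Nkd1 (-1.77).

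The signals that mark placodes most narrowly were rare and uneven between captures. Shh stood at 19.7, 0.331, 0 and 2.47 CPM in the stratified cells of the WT captures and at 16.4 CPM in Prokr2Cre library 1. It was detected in 17 cells of WT replicate 1, 2 of replicate 2, none of replicate 4 (0 of 118), 2 of replicate 5 and 17 of library 1. Dkk4, a WNT inhibitor of early placodes, had 99 UMIs in WT stratified and none in WT simple cells, which makes it at least 44.6-fold higher against a floor of 3 counts over the simple cells. Of those 99 UMIs, 79 came from 1 cell of replicate 2. Foxi3, a forkhead gene of ectodermal placodes, had 11 UMIs in WT stratified and none in simple cells.

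Epithelial ligands and receptors beyond the placode list were higher as a rule. Of 22 such genes 20 were tested, with 14 higher, 3 lower and a median log2 difference of 1.46. Wnt6 stood at 66.4, 146, 62.9 and 154 CPM in stratified cells of WT replicates 1, 2, 4 and 5 and at 3.23 to 5.73 CPM in simple cells (log2 difference 4.63, SE 0.24, adjusted p = 1.69e-05). Stratified cells of Prokr2Cre library 1 and library 2 held 257 and 418 CPM, above every WT capture, and detection was 72.3% and 83.3% against 30.5% to 50% in WT. Cells without Epcam held a Wnt6 UMI in 2.61% to 3.92% of cases in WT, in 6.87% in library 1 and in 15.6% in library 2. Wnt3 had 164 UMIs in WT stratified and 3 in WT simple cells, a ratio of 73.9 (24.9 to 362), and Wnt9b had 58 and none, at least 26.2-fold. Wnt7b was higher by 2.11 and Wnt4 by 1.65. Pdgfa, a signal to dermal cells, was higher by 1.76, and Pthlh, a signal of epithelial buds, by 1.51 (adjusted p = 0.0239). The Pthlh call was lost without replicate 2 (adjusted p = 0.0938) or replicate 5 (adjusted p = 0.0934), with the top doublet scores removed (adjusted p = 0.0678), without the block (adjusted p = 0.219) and under DESeq2 (adjusted p = 0.251). Under the stricter Epcam setting Pthlh was at 3.07 (adjusted p = 0.00132). Of the Notch pathway, Notch1 was higher by 1.83, its ligand genes Jag2 and Jag1 by 1.81 and 1.19, while the target gene Hey1 was lower at -1.13. Fgfr2, the receptor for dermal FGFs, stood at 100.2, 290, 323 and 331 CPM against 38.5, 98.4, 136 and 145 CPM (log2 difference 1.41, SE 0.08). Bmp4 and Fgf10, known as mesenchymal signals in this tissue, were the other 2 lower genes at -1.88 and -2.22. Under the stricter Epcam setting Bmp4 fell short of the threshold at -0.56 (adjusted p = 0.273), and Hes1, a Notch target, went from 0.51 to 0.05 (adjusted p = 0.815). Bmp7 (0.72) lost its call without replicate 2 (0.52, adjusted p = 0.0545). It was at 1.02 under the stricter Epcam setting (adjusted p = 0.00147) and at 1.18 without cells holding a collagen UMI (adjusted p = 0.00167). The receptor gene Notch3 (0.67) lost its call under the stricter Epcam setting (adjusted p = 0.103) and in thinned cells (adjusted p = 0.25).

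The oral list was mixed. Of 10 oral and dental genes 6 were tested, 4 were higher, 1 was lower and 1 was not called, with a median log2 difference of 2.40. Foxe1, a forkhead gene of the palate and pharynx, stood at 24.9, 18.5, 16.3 and 35.8 CPM in stratified cells against 0.315, 0.41, 0 and 0.881 CPM in simple cells, and 0 to 0.102 CPM in cells without Epcam. Its log2 difference was 5.91 (SE 0.30, adjusted p = 1.64e-05). Barx2, a homeobox gene of oral and skin epithelium, was higher by 4.45 and Tbx1, needed for teeth and palate, by 2.82. Krt13, a keratin of the oral lining, had 169 UMIs in WT stratified and none in WT simple cells (at least 76.2-fold), at 26.2, 1.99, 0 and 0 CPM over the captures. The Pitx1 level did not differ in one direction (log2 difference -0.10, adjusted p = 0.873). Pax9, a pharyngeal and dental regulator, was lower at -0.68 but was at 0.15 (adjusted p = 0.794) under the stricter Epcam setting and was not called in thinned cells (-0.61, adjusted p = 0.187). Without cells holding a collagen UMI it was called higher at 1.18 (adjusted p = 0.0382), while Pitx1 was called lower at -0.87 (adjusted p = 0.026).

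Nasal regulators were lower more often than higher. Of 12 nasal and olfactory basal genes, all tested, 5 were lower, 3 were higher and 4 were not called, with a median log2 difference of -0.26. Pax6, the placodal and olfactory regulator, stood at 22.5, 18.4, 54.2 and 23.0 CPM in stratified against 46.6, 60.8, 89.6 and 37.9 CPM in simple cells. It was lower in each capture (log2 difference -1.04, SE 0.17, adjusted p = 0.00312), and was detected in 11.1% to 22.0% of WT stratified cells. Otx2 (-0.80), Eya1 (-0.65) and the neurotrophin receptor gene Ngfr (-1.96) were among the lower genes too. Icam1, an adhesion gene of olfactory horizontal basal cells, was higher by 2.09, Meis1 by 0.81 and Eya2 by 0.72. Under the stricter Epcam setting 7 of 11 tested genes were lower and 1 higher, and Eya2 was at 0.19 (adjusted p = 0.384; 0.20 in thinned cells, adjusted p = 0.507) and Meis1 at 0.31 (adjusted p = 0.0504). Sox2, kept by progenitors of many epithelia, stood at 97.7, 75.1, 154 and 102 CPM against 104, 157, 149 and 70.9 CPM and was not called (log2 difference -0.13, adjusted p = 0.724). It was called lower at -0.73 under the stricter Epcam setting (adjusted p = 0.0183), at -0.61 with cells thinned to 3000 UMIs (adjusted p = 0.0323) and at -0.88 without cells holding a collagen UMI (adjusted p = 0.00244).

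Keratins of simple epithelium were detected in the stratified cells, and their difference from simple cells depended on the setting. Krt8 stood at 370, 226, 281 and 250 CPM in stratified and 399, 300, 190 and 174 CPM in simple cells, higher in 2 captures and lower in 2 (log2 difference 0.18, adjusted p = 0.459). With cells thinned to 3000 UMIs it was called lower at -0.47 (adjusted p = 0.0188), and it was at -0.46 (adjusted p = 0.0537) under the stricter Epcam setting. It was detected in 49.3% to 65.0% of WT stratified and in 35.9% to 53.3% of WT simple cells, against 1.14% to 5.13% of WT cells without Epcam. Its partner Krt18 was not called (-0.16, adjusted p = 0.483), but was lower at -0.93 in thinned cells (adjusted p = 1.75e-05). Of the 8 simple keratins and claudins 3 were higher, namely Krt19 at 322, 143, 169 and 167 CPM against 109.7, 33.2, 23.3 and 36.6 CPM (log2 difference 2.15, SE 0.18), Krt7 (1.09) and Cldn4 (1.05), and Cldn3 was lower (-0.65). With at least 3 Epcam UMIs the list read differently: 4 genes were lower, Krt18 among them at -0.81 (adjusted p = 0.00381), and Krt19 alone was higher.

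Among called genes with at least 50 CPM in simple cells and 1 direction in all captures, the 12 with the largest negative differences were Fabp7, Ebf2, Elavl4, Barx1, Crym, Cxcl12, Col26a1, Mt3, Twist1, Runx1t1, Igf1 and Galntl6. Fabp7, a fatty acid binding protein of glia, stood at 5.01, 1.16, 1.17 and 1.64 CPM in stratified and 271, 29.0, 5.02 and 9.25 CPM in simple cells (log2 difference -5.13, SE 0.38). Ebf2, a factor of olfactory neuron and mesenchymal lineages, was at -3.64, and Elavl4, a neuronal RNA-binding protein, at -3.28. Of 6 neuronal genes 5 were lower, Elavl3 at -3.31 and Gap43 at -3.05, and of 9 mesenchymal genes 8 were lower, Col1a1 at -2.45 and Twist1 at -2.89. Several of these differences depended on the Epcam minimum. With at least 3 Epcam UMIs in both classes, 1 of the 9 mesenchymal genes was still called, Col1a1 was at -0.44 (adjusted p = 0.165) and Twist1 at -1.07 (adjusted p = 0.13), while Elavl3 was at -3.74 and Ebf2 at -3.96. Fabp7 could not be tested under that setting. Gap43 was at -1.34 (adjusted p = 0.0416) with at least 3 Epcam UMIs, and Igf1, a growth factor, went from -2.81 to -0.96 (adjusted p = 0.0469). With the top doublet scores removed, Twist1 was at -4.46 (adjusted p = 2.84e-05) and Igf1 at -4.57.

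**Figure D4:**
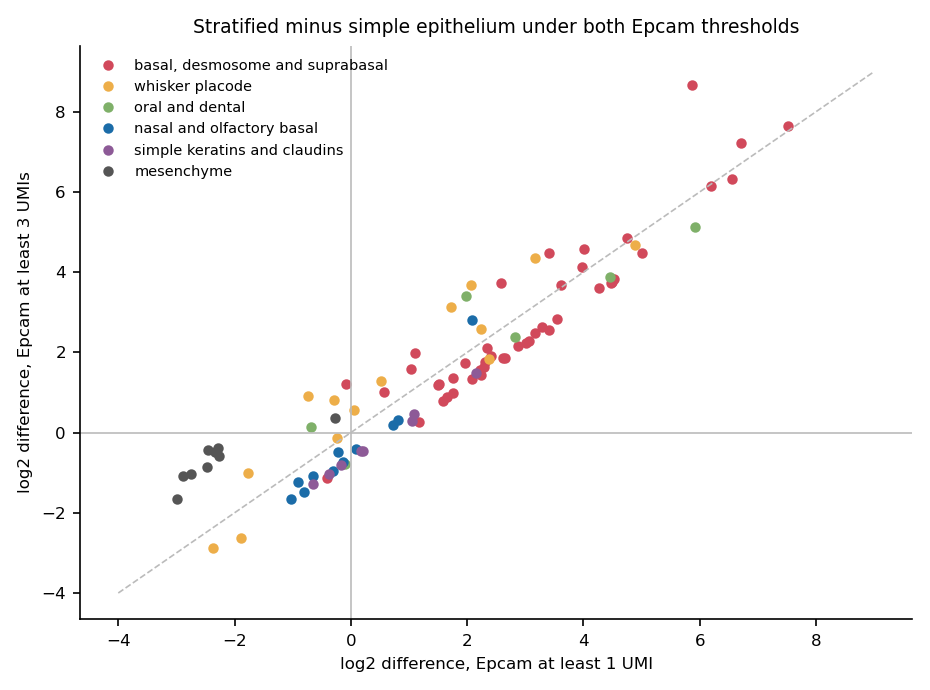
Log2 difference of stratified minus simple cells for the genes of 8 lists with at least 1 Epcam UMI (horizontal) and with at least 3 (vertical) required in both classes. Points on the dashed line are the same under both thresholds; mesenchymal genes (dark grey) move from a median of -2.45 to -0.58, while most epithelial genes stay on their side of 0.

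Proliferation and other epithelial types were measured beside these programs. Of 16 cell cycle genes, all tested, 7 were lower, none was higher and the median log2 difference was -0.25, with Ccna2, a cyclin of S and G2 phase, at 34.9, 55.1, 48.9 and 42.8 CPM against 55.4, 91.6, 72.1 and 59.0 CPM (log2 difference -0.56, SE 0.09, adjusted p = 0.00277). The call of Top2a (-0.28) was lost without WT replicate 1, 2 or 4 (-0.26, -0.24 and -0.30, adjusted p from 0.0733 to 0.138) and without cells holding a collagen UMI (-0.26, adjusted p = 0.116). Top2a was at -0.42 under the stricter Epcam setting (adjusted p = 0.00615) and at -0.72 in thinned cells (adjusted p = 0.00165). The Ccna2 call was lost with cells thinned to 3000 UMIs (-0.46, adjusted p = 0.131). Of 9 ciliated cell genes 7 were tested and 4 were lower, namely Rsph1 (-1.39), Tppp3 (-1.67), Dynlrb2 (-1.27) and Tekt1 (-0.89). The Tekt1 call was lost without WT replicate 1 (-0.50, adjusted p = 0.277), without replicate 4 (adjusted p = 0.0561) and under the stricter cell filter (adjusted p = 0.168). The Dynlrb2 call was lost under that filter (-1.12, adjusted p = 0.0936) and under DESeq2 (-1.08, adjusted p = 0.24). Under the stricter Epcam setting 5 of 7 tested ciliated cell genes were lower, with Dynlrb2 at -1.88 (adjusted p = 0.00356) and Tekt1 at -1.49 (adjusted p = 0.00218). The summed level of the 9 ciliated cell genes in stratified cells was 316 CPM in WT replicate 1 and 23.3 to 46.5 CPM in the other 3 captures. Of 14 secretory genes 6 were tested and 1, Lypd2, was higher (0.59, adjusted p = 0.0145), which was not so under the stricter Epcam setting (-0.05, adjusted p = 0.856) or in thinned cells (-0.61, adjusted p = 0.0799). Endothelial genes summed to 1.49 to 6.51 CPM and immune genes to 0 to 16.5 CPM in WT stratified cells. Of 4 Merkel cell genes 2 were tested, and the list summed to 31.9 to 76.9 CPM. Isl1, a LIM homeobox gene, was higher at 1.04 (adjusted p = 0.0203), but was at 0.29 (adjusted p = 0.391) under the stricter Epcam setting and lost its call without WT replicate 1, 4 or 5. Insm1, a zinc-finger factor of neuroendocrine cells, was lower at -2.88, and Atoh1, which defines Merkel cells, was at 0 in stratified cells of every library.

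Clustering the 1315 cells on other genes than those of the rule gave 17 sub-clusters, which are described by number and leading genes, since the genes that define them are no test. Libraries were clustered without correction, and many sub-clusters were drawn mainly from 1 library, so library and cell state cannot be told apart there. The mixture goes beyond what the working description of basal and surface epithelium covers. Sub-clusters 2, 7 and 14 together held 259 cells, 19.7% of the selection, and were led by genes of the upper layers. They made up 4.52% of the stratified cells of WT replicate 1 against 25.9%, 30.5% and 20.3% in WT replicates 2, 4 and 5, and 25% in Prokr2Cre library 1. In sub-cluster 7, with 99 cells from 5 libraries, Krtdap stood at 3642 CPM, Krt1 at 1333 and Krt10 at 1339, against 142, 40.6 and 113 CPM in the other cells, and 17 of the 23 suprabasal and periderm genes were raised at least 1.5-fold there. Col17a1, the basal anchor, was at 7.0 CPM in sub-cluster 7 and at 0 CPM in sub-cluster 14.

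Sub-cluster 14, with 36 cells from 5 libraries, was led by Slc2a3, Gabrp, Krt7 and Lypd3. Gabrp, a GABA receptor subunit used as a periderm gene, stood at 451 CPM in it and at 2.59 CPM in the other cells, and Krt5 and Krt15 stood at 3386 and 2784 CPM while Trp63 was at 6.63 CPM. Sub-cluster 16 (22 cells, 16 of them from WT replicate 1) was led by Gal, Ly6d and Krt16, with Krt14, a gene of the rule, at 4501 CPM. Sub-cluster 2 (124 cells, 77 from WT replicate 2) was led by Sprr1a, a cornified envelope precursor, and Krt6a, and kept Sox2 at 208 CPM.

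Sub-clusters with much Wnt6 were split by library. Sub-cluster 4 (112 cells, 102 of them from Prokr2Cre library 1) and sub-cluster 6 (100 cells, 76 from WT replicate 2 and 8 from Prokr2Cre library 2) had Lmo1, a LIM-only transcriptional regulator, among their leading genes at 580 and 897 CPM. In both, Tfap2b, an AP-2 factor, was high at 324 and 467 CPM and Wnt6 at 389 and 430 CPM, and Krt8 was low at 24.1 and 3.90 CPM. Of the 19 whisker placode genes, 10 were raised in sub-cluster 4 and 7 in sub-cluster 6, against 6 each in sub-clusters 3 and 12. Together sub-clusters 4 and 6 held 54.3% of the stratified cells of library 1, 66.7% of those of library 2 and 2.54% to 15.05% in the WT captures. Sub-cluster 15 (25 cells, 14 from WT replicate 2 and 10 from replicate 5) was led by Elmo1, Plcl1, Pthlh and Prdm1 and had 7 of the 19 whisker placode genes raised, with Sostdc1 at 1512 CPM, Lhx2 at 156 CPM and no UMI of Krt8. Sub-cluster 3 (113 cells, 94 from WT replicate 2) had Fezf1 among its leading genes and carried Fgf8, a signal of facial epithelium, at 80.0 CPM.

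Sub-cluster 8 (91 cells, 77 from WT replicate 1) had Irx1, Krt17 and Pitx1 among its leading genes and carried Shh at 63.0 CPM. Sub-cluster 10 (74 cells, 59 from WT replicate 1) had Ramp2, Egfl7 and Sp6 among its leading genes and carried Shh at 43.7 CPM. The 4 endothelial genes summed to 185 CPM in sub-cluster 10 against 3.32 CPM in the other cells, and the 3 muscle genes to 126 against 0.297 CPM. Few cells held them: Cdh5, an endothelial cadherin, had 108 UMIs there, in 1.35% of its cells, and Actc1, a cardiac and embryonic muscle actin, had 166, in 2.70%. In sub-cluster 8 the 5 immune genes summed to 139 CPM against 5.49 CPM, with Tyrobp in 1.10% of its cells. The part of these cells in either grouping was not tested. Sub-cluster 1 (126 cells from 5 libraries, 71 of them from WT replicate 2) was led by Gstm1, Olfm5 and Aldh1a3 and held 9 of the 12 nasal and olfactory genes. Pax6 stood at 92.8 CPM and Eya1 at 240 CPM there, while Krt5 was at 33.0 CPM. Sub-cluster 9 (87 cells, 73 from WT replicate 1) carried 8 of the 12 nasal genes and was led by globin genes, Hbb-bs at 7419 CPM. Over all stratified cells Hbb-bs stood at 1493, 284, 13.98 and 10.3 CPM in WT replicates 1, 2, 4 and 5, and its part in this grouping was not tested.

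**Figure D5:**
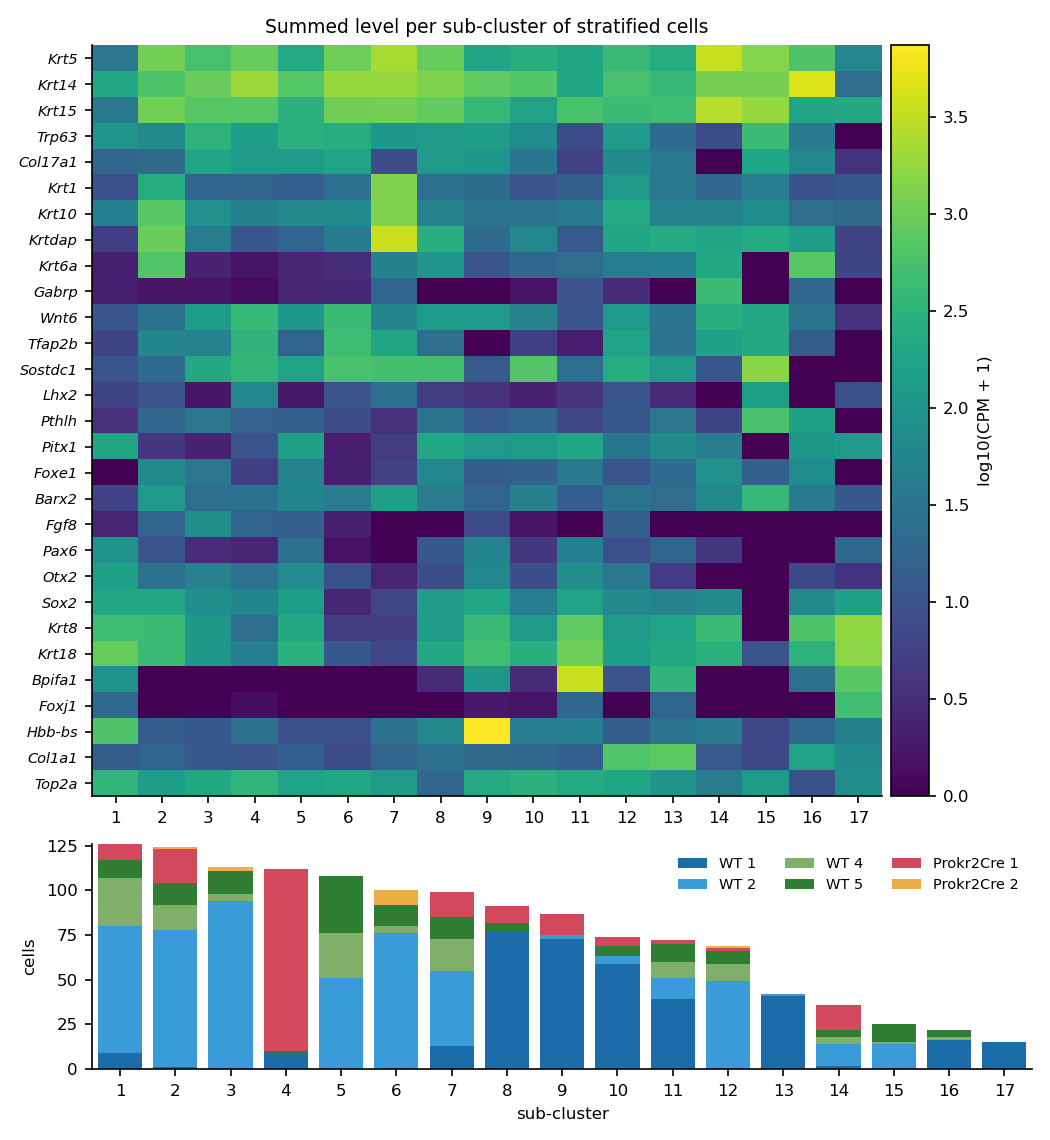
Top: summed level of selected genes in each of the 17 sub-clusters of stratified cells, as log10(CPM + 1). Bottom: cells per sub-cluster, coloured by library; sub-clusters 4, 13 and 17 come almost wholly from 1 library, whereas 1, 2 and 7 hold cells of 5 or 6.

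Single cells were also read gene by gene, taking 2 UMIs as the minimum. Pax6 was held by 89 of the 1315 cells. Krtdap was held by 303 cells, of which 115 also held Krt1 (74.2% of the 155 Krt1 cells) and 6 held Pax6. Wnt6 and Sostdc1 were held by 437 and 410 cells and shared 242 of them, 55.4% and 59.0% of each. These counts pool libraries of different depth and carry no test.

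Some of the selected cells carried programs of other cell types. Sub-clusters 12 and 13, with 111 cells (8.44% of the selection), were led by mesenchymal and cartilage genes: Col1a1 stood at 670 and 793 CPM there against 5.87 to 172 CPM in the other 15 sub-clusters, and 8 of 9 mesenchymal genes were raised. Of these 111 cells, 92 were among the barcodes with the highest doublet scores, compared with 0 to 14 cells in each other sub-cluster. Sub-cluster 11 (72 cells) was led by the airway secretory genes Bpifa1, Reg3g and Lypd2, and sub-cluster 17 (15 cells, all from WT replicate 1) by cilia genes, with Foxj1, the master regulator of motile cilia, at 505 CPM and Trp63 at 0 CPM. These 87 cells were 15.3% of the stratified cells of WT replicate 1 and 2.38% to 7.63% in the other WT captures. With the highest doublet scores removed, the comparison with simple epithelium called 3055 genes, and 2900 of the 3244 calls were among them.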

How the data were processed

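Droplet single-cell RNA was measured in 7 libraries. The deposited matrices hold UMI counts per gene and cell, not normalized, made by the authors with Cell Ranger 6.0.1 (WT replicate 1), 7.0.0 (other WT) and 6.1.2 (Prokr2Cre) per the file headers; the submitters' processing notes name Cell Ranger 4, Seurat 4.3.0 and mm10. From these counts, barcodes were kept from 500 detected genes upward and with mitochondrial UMIs up to 10%, over 30344 genes shared by all libraries.

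Counts were summed per class and capture and tested with edgeR 4.0.16 in R 4.3.3 (TMM, filterByExpr, quasi-likelihood test, capture as a block), with Benjamini-Hochberg adjustment over all 12545 genes and a threshold of 0.05. The block rests on both classes coming from the same capture: deviations from the class means correlated within captures at r = 0.863, 0.544, 0.685 and 0.549 over 12545 genes, and between captures at -0.562 to 0.362. Tested on simulated data of this comparison with 12425 genes, the fit recovered 200 of 200 genes changed by a log2 difference of 2, with 10 false calls. The simulated captures did not differ from each other, and the changed genes were drawn from those above a minimum level. Recovery of low-level genes, or under differences between captures, was therefore not measured.

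Named genes were the 12 with the largest positive and the 12 with the largest negative log2 differences among called genes with at least 50 CPM in the higher class and 1 direction in all captures, plus members of the gene lists. The members and lists were chosen with earlier results of these data known.

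Sub-clusters came from scanpy 1.11.5 and leidenalg 0.10.2 (1500 variable genes, 20 components, resolution 1). A gene of a list counted as raised in a sub-cluster when it was found in at least 10% of its cells at 1.5 times the level of the other cells or more. Scrublet's own threshold marked at most 0.333% of barcodes and was not used; the highest scores, 0.8% per 1000 barcodes, were removed only as an alternative. Other alternatives were RLE scaling, DESeq2 1.42.0, no low-count filter, no block, stricter cell filters, cells thinned to 3000 UMIs, other sums, WT replicate 3 in place of 4, and each capture left out. The Epcam minimum of 3 UMIs and the removal of cells with collagen UMIs were chosen after seeing the data. Some genes of the lists and sub-clusters are not reported here.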

Additional observations from a re-analysis of the deposited data

Results flagged for a closer look

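Of 131 levels examined over the 4 WT captures, 19 had a single outlying capture by Dixon's criterion at the 95% level, which sets the distance from its neighbour against the range, and 12 of these stood out in WT replicate 1. Chance alone marks about 1 in 20 such groups, and many of these levels belong to the same cells.

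In stratified cells of WT replicate 1, ciliated genes summed to 316 CPM, against 23.3 to 46.5 CPM in the other captures. Single cilia genes followed: Dynlrb2 stood at 78.5 CPM (others 1.17 to 3.70), Rsph1 at 54.1 CPM (2.33 to 2.98), Tekt1 at 45.6 CPM (4.66 to 8.63) and Tppp3 at 44.7 CPM (1.23 to 2.81). Secretory genes summed to 1145 CPM (181 to 289), with Lypd2 at 242 CPM (83.9 to 107), and Krt19 stood at 322 CPM (143 to 169). Genes of other tissues were high there too: muscle genes summed to 33.7 CPM (0 to 1.17), immune genes to 16.5 CPM (0 to 1.49), and Fabp7 stood at 5.01 CPM (1.16 to 1.64). As given above, few cells held the muscle gene Actc1 in sub-cluster 10 and the immune gene Tyrobp in sub-cluster 8. Both sub-clusters came mainly from WT replicate 1. The barrier regulator Grhl3 was low in that capture at 9.18 CPM, against 28.0 to 30.9 CPM.

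WT replicate 2 stood out for the placode genes Msx2, at 29.1 CPM (9.87 to 12.2), and Fgf20, at 3.31 CPM (1.17 to 1.34). WT replicate 4 stood out for Wnt10a, low at 4.08 CPM (14.8 to 16.9), for Pax6, at 54.2 CPM (18.4 to 23.0), and for the proliferation gene Top2a, at 348 CPM (149 to 180). WT replicate 5 stood out for the oral genes Barx2, at 129 CPM (33.9 to 45.3), and Tbx1, at 42.8 CPM (22.7 to 25.5).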

How the results depend on the processing

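Against 3244 genes called, 691 were called with no replicate block, 1425 with cells thinned to 3000 UMIs, 2144 with at least 3 Epcam UMIs and 1974 without cells holding a collagen UMI. Leaving out 1 capture gave 2050 to 2845 genes. DESeq2 called 2481 and RLE scaling 3232. The cause was not tested.

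Of 105 genes of the lists and the naming rule followed through the alternatives, 105 kept their direction and side of the threshold under RLE scaling, 102 under DESeq2, and 79 of the 100 that could be fitted under the Epcam minimum of 3. With no replicate block 63 did so and 41 lost their call. The sign of Tfap2b became positive with no replicate block (0.023), thinned (0.49), with 3 Epcam UMIs (1.22), without collagen cells (4.80) and in part with 1 capture left out (-0.53 to 0.16; positive without WT replicate 1 or 5). Pax9 was at 0.15 with 3 Epcam UMIs and 1.18 without collagen cells (called higher). Krt8 was at -0.47 thinned (called lower), -0.46 with 3 Epcam UMIs and -0.44 without collagen cells, and Lypd2 at -0.61 thinned and -0.054 with 3 Epcam UMIs. With 1 capture left out, Pitx1 ran from -0.52 to 0.34, Sox2 from -0.34 to 0.17 and Krt18 from -0.32 to 0.0061, each positive only without WT replicate 2.

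The share of stratified among epithelial WT cells was 48.6% with 3 Epcam UMIs. The share of kept cells in Prokr2Cre library 1 was 5.65% under the stricter cell filter and 6.64% when thinned. Shh and Dkk4 did not pass the low-count filter of the main fit and were not tested. The 12 stratified cells of Prokr2Cre library 2 limit every value there.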
